A study of Homo sapiens with 4 samples.

Results

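MTF-1 peaks that were present in cadmium-exposed cells and absent from control cells are described here in the 1 Mb windows of the genome where they outnumbered the peaks lost. Chromosomes 1 to 22 and X of hg38 were cut into windows of 1 Mb, and a window was kept when it held at least 5 gained peaks and at least 2 times as many gained as lost peaks. A gained peak is a peak of the cadmium list that shares no base with the control list, a lost peak is the reverse, and sites with a shared base are called conserved. Each peak was placed by its centre. Of the 60121 cadmium peaks on these chromosomes, 9074 were gained, which is 15.1% of them. Of the 2802 windows that held a peak, 248 met the rule, or 8.85%, and their 2619 gained peaks are the members described here. The windows were selected on the measured peak positions, so the gained and lost counts inside them are descriptions and were not tested.

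The data came from CUT&RUN, in which an antibody tethers a nuclease to a protein on chromatin and the DNA released around it is sequenced. The cells were MDA-MB-231, a line derived from a human breast cancer. The control group was 2 libraries of untreated cells, and the cadmium group was 2 libraries of the same line, passaged in rising cadmium sulfate and then held at 10 µM over 10 or more further passages. The authors merged the 2 libraries of a condition before they called peaks, so each condition is represented by 1 list of positions, with no height, no spread between replicates and no known depth. The cadmium list held 60130 peaks with a median width of 999 bp, and the control list held 69299 with a median of 1399 bp.

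MTF-1 is a zinc finger protein that activates transcription when metal ions accumulate and binds metal response elements (MREs) beside metallothionein genes, whose small proteins bind cadmium and zinc. AP-1 is a dimer of FOS and JUN family proteins that binds a short palindrome-like sequence, largely in enhancers, and its subunits are induced by stress and by mitogenic signals. Forkhead (FOX) factors bind AT-rich sequences, and several of them bind closed chromatin.

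The sequences of 5 member peaks show what the strings searched for look like in these windows. They are peaks of at most 300 bp that held the string, taken in order from the windows with most gained peaks. All of them were 199 bp wide, a single bin of the peak caller, and they are printed from the plus strand of hg38, 5′ to 3′. Capitals mark the AP-1 string, TGACTCA or its reverse complement TGAGTCA, in the first 3 sequences. AP-1 1 (chr1:7282001-7282199) lay in an intron of CAMTA1, 62739 bp from the closest transcription start site (TSS). AP-1 2 (chr16:2370801-2370999) was intronic and 9755 bp from the closest TSS, of the pseudogene ABCA17P, and its string lay 3 bp from the peak centre. AP-1 3 (chr9:130543001-130543199) was intergenic. In the last 2 sequences the capitals mark the MRE core, TGCACNC or TGCGCNC on either strand. MRE core 1 (chr13:113222201-113222399) lay in an intron of CUL4A, which encodes a scaffold of ubiquitin ligases, with its string 1 bp from the peak centre. MRE core 2 (chr1:7479001-7479199) lay in another intronic stretch of CAMTA1.
AP-1 1: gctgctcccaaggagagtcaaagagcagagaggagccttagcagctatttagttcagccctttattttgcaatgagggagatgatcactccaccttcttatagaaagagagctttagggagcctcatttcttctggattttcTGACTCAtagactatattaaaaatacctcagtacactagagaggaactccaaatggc
AP-1 2: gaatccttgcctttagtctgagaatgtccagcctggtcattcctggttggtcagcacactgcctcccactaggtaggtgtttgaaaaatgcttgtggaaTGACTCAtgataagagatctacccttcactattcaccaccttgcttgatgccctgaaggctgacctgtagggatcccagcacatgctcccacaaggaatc
AP-1 3: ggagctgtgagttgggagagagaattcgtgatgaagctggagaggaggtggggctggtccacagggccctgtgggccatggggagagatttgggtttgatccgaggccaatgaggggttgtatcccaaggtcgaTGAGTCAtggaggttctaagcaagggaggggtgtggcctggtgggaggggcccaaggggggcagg
MRE core 1: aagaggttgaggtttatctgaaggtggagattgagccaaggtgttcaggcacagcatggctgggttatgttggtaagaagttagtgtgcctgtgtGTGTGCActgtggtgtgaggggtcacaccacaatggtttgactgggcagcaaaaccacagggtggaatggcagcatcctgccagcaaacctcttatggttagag
MRE core 2: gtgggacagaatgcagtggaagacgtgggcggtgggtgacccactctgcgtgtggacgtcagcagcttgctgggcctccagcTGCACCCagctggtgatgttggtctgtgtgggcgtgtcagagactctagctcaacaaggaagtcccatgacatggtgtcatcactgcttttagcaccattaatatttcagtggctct

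The member windows held a median of 9 gained peaks (quartiles 7 and 13, range 5 to 36) and a median of 2 lost peaks. The other 2554 windows held medians of 2 gained and 6 lost peaks. In sum, the member windows took up 8.15% of the length of these chromosomes and held 28.9% of the gained, 12% of the conserved and 3.53% of the lost peaks. In 27 member windows there were 241 gained peaks and no lost peak. In 2 of these, no control peak was centred at all: chr16:59000001-60000000, with 10 gained peaks and no protein-coding gene, and chr18:44000001-45000000, with 8 gained peaks. At the edge of the rule, 24 windows with exactly 5 gained and at most 2 lost peaks were inside, and 34 windows with 4 gained and at most 2 lost peaks were outside. Along the ratio, 16 windows with exactly 2 gained per lost peak were inside (150 gained, 75 lost), and 33 windows that missed it by 1 gained peak were outside (277 gained, 155 lost). Another 457 windows held 5 or more gained peaks without meeting the ratio, with 3546 gained and 4895 lost peaks between them.

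**Figure D1:**
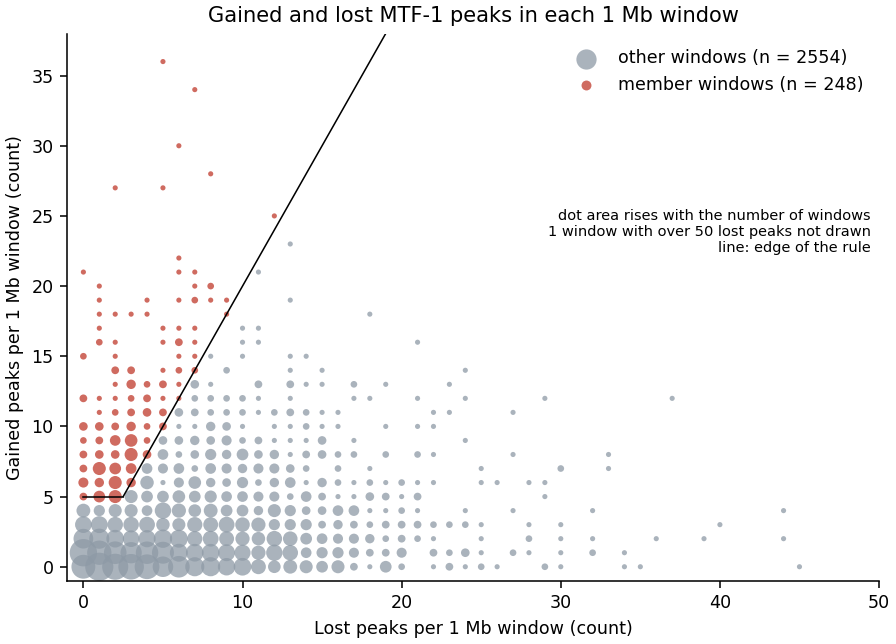
Each dot stands for the 1 Mb windows with a given count of lost (x axis) and gained peaks (y axis), with larger dots for more windows, red for the 248 member windows and grey for the 2554 others. The black line is the edge of the rule. Member windows run up to 36 gained peaks at no more than 12 lost peaks, and 1 window with over 50 lost peaks is not drawn.

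Chromosome 16 held the greatest share of member windows. Of its 78 windows with peaks, 29 met the rule, or 37.2%, and they held 376 of its 511 gained peaks (73.6%). Chromosome 22 followed with 12 of 39 windows (30.8%), then chromosome 15 with 19 of 83 (22.9%), chromosome 9 with 19 of 115 (16.5%) and chromosome 1 with 34 of 231 (14.7%). Chromosomes 16 and 22 were the only chromosomes with more gained than lost peaks over their whole length, at 1.73 and 1.28 gained per lost peak. Outside the member windows their ratios were 0.668 and 0.825, against 0.346 over all windows that were not members. At the other end, chromosome 4 had 1 member window of 189, chromosomes 12 and 14 had 2 each, and chromosomes 7 and 21 had none of 153 and 39. Chromosome 21 nevertheless had 0.653 gained per lost peak, more than chromosome 1 (0.546), so a chromosome without member windows was not always poor in gained peaks.

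**Figure D2:**
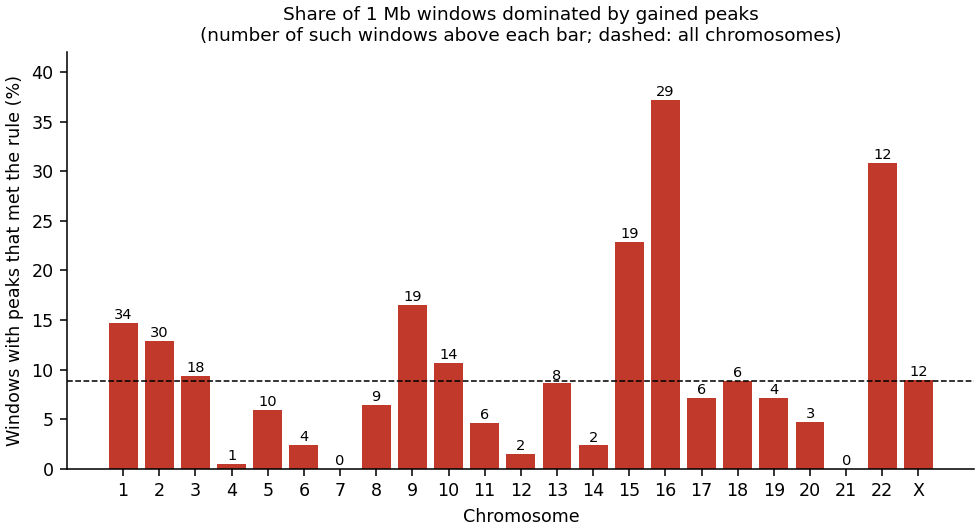
Bars give, for each chromosome, the percentage of its 1 Mb windows with peaks that met the rule, with the number of such windows above the bar. The dashed line is the share over all chromosomes, 8.85%. Chromosomes 16 and 22 stand highest at 37.2% and 30.8%, and chromosomes 7 and 21 are at 0.

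Member windows were also found next to each other. Of the 248, 119 (48.0%) adjoined another member window and formed 46 stretches with 1377 member peaks, while 129 stood alone. There were 30 stretches of 2 windows, 8 of 3, 5 of 4 and 3 of 5. Around them, gained peaks declined with distance. The 310 windows that adjoined a member window held a mean of 4.41 gained peaks, those 2 windows away 3.40, those 3 away 3.03, those 4 away 2.60, those 5 away 2.40 and those 6 or more away 1.98. The last group also took in all 153 and 39 windows of chromosomes 7 and 21, which had no member window. Conserved sites declined as well, with means of 24.1, 20.8, 17.6, 16.6, 15.6 and 14.8 over the same steps, and the median GC content of the windows went from 42.9% to 39.1%. The part of site density and GC content in the decline of gained peaks was not tested. Lost peaks had means of 7.09 in adjoining windows, between 6.70 and 7.24 at 2 to 5 windows and 7.51 beyond. Of the adjoining windows, 32.3% held more gained than lost peaks, against 11.4% of those 6 or more windows away.

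**Figure D3:**
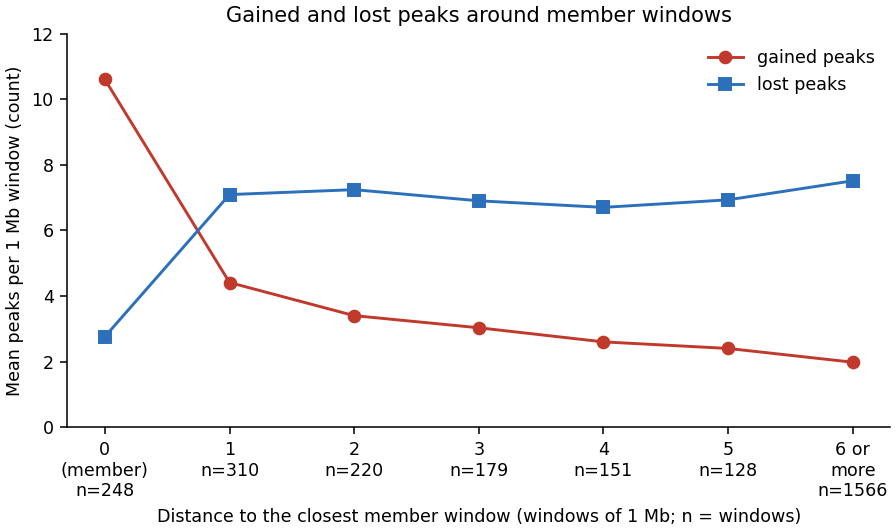
Mean gained (red circles) and lost peaks (blue squares) per 1 Mb window are plotted against the distance in windows to the closest member window, with the number of windows under each point. Gained peaks go from 4.41 in adjoining windows to 1.98 at 6 or more windows, while lost peaks lie between 6.70 and 7.51 outside the members. The values at distance 0 are set by the rule, and the last point includes chromosomes 7 and 21, which have no member window.

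The stretch with most gained peaks covered chr16:55000001-60000000, 5 windows with 74 gained and 9 lost peaks and 63 protein-coding genes. From left to right its windows held 7, 19, 27, 11 and 10 gained peaks and 0, 4, 2, 3 and 0 lost peaks. The second of them holds the metallothionein cluster. The third, chr16:57000001-58000000, had 83 cadmium and 62 control peaks. Its member peaks lay in or within 3 kb of CX3CL1, which encodes a membrane-bound chemokine (2 peaks), ADGRG1 (2) and ADGRG5 (3), which encode adhesion G protein-coupled receptors, CNGB1, a cyclic nucleotide-gated channel subunit (3), CPNE2 (3) and KIFC3, a minus-end kinesin (3). The windows on either side of the stretch had 4 gained and 3 lost peaks and 1 gained and no lost peak.

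Some other stretches with many gained peaks lay close to chromosome ends. On chromosome 9, chr9:135000001-138000000 held 71 gained and 22 lost peaks and 94 protein-coding genes. On chromosome 16, chr16:1-3000000 held 63 gained and 20 lost peaks and 134 genes, and chr16:87000001-90000000 held 51 gained and 19 lost. The last 4 windows of chromosome 13, from 111000001 to its end at 114364328, held 50 gained and 12 lost peaks. Of all member windows, 39 (15.7%) lay within 5 Mb of a chromosome end, against 183 (7.17%) of the others. The 457 other windows with 5 or more gained peaks had a similar share, 83 windows or 18.2%. Stretches in the interior of chromosomes included chr2:71000001-76000000 with 53 gained and 18 lost peaks, chr15:87000001-91000000 with 45 and 14, and chr1:29000001-32000000 with 48 and 10. Also interior was chr16:27000001-32000000, with 43 and 13. No stretch of 5 windows lay within 5 Mb of a chromosome end.

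Among single windows, chr8:142000001-143000000 had the most gained peaks, 36 against 5 lost. They covered 73.2 kb with a median width of 1999 bp, and 8 of them lay in or near ADGRB1 and 6 in or near TSNARE1. The next, chr9:135000001-136000000, had 34 gained and 7 lost peaks with the same median width, 5 of them at KCNT1, a sodium-activated potassium channel gene. It had 56 cadmium peaks and 33 control peaks. In chr16:1000001-2000000 there were 30 gained and 6 lost peaks, 14 of the gained within 3 kb of a TSS. In chr13:113000001-114000000 there were 28 gained and 8 lost peaks, 9 at MCF2L and 2 each at F7 and F10, the genes of coagulation factors VII and X. A different arrangement was seen in chr1:7000001-8000000, where all 27 gained peaks lay inside 1 gene, CAMTA1, and only 2 were within 3 kb of a TSS. Their median width was 599 bp, and 10 of them had an AP-1 string around the centre. Such counts, here and below, refer to the 500 bp around the peak centre, which can reach beyond a narrow peak. In chr20:24000001-25000000 there were 21 gained and no lost peaks, 7 of them at SYNDIG1. The remaining windows of the first 10 were chr8:143000001-144000000 (25 gained, 12 lost), chr15:74000001-75000000 (22 and 6, with 8 peaks at CCDC33) and chr3:13000001-14000000 (21 and 6). In this last window 9 peaks lay at IQSEC1 and 2 at WNT7A, which encodes a secreted Wnt ligand. Across these 10 windows the widths and base composition of the gained peaks differed: the median GC content of the searched sequence ranged from 52.0% on chromosomes 1 and 20 to 65.3% in chr16:1000001-2000000.

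By gene, 932 protein-coding genes had a member peak in the gene or within 3 kb of it, and 41 had 5 or more. The 25 with most peaks were between 68.7 and 1743 kb long, and their order is therefore not an order per length. The last places were tied, since 7 genes had 6 member peaks, and the 4 with most peaks closest to their TSSs were kept. CBFA2T3, TSNARE1 and SEMA5A, also with 6, were not. The 25 are given here by known role, which was not tested for enrichment. CAMTA1 on chromosome 1, which encodes a calmodulin-binding transcription activator, held 27 member peaks over its 984 kb, with 1 lost peak and 16 conserved sites. Its closest member peak to the gene start was 240946 bp away. RARB, a retinoic acid receptor gene, and ZBTB20, a transcriptional repressor gene, had 6 each.

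Genes of ion channels, pumps and their receptors included GABBR2, a GABA-B receptor subunit, with 11 member peaks and no lost peak. CACNA2D2, an auxiliary subunit of voltage-gated calcium channels, had 10 over 142 kb, covering 26.0 kb of sequence, with 2 lost peaks and 2 conserved sites. The widest member peak of all, 8599 bp at chr3:50387201-50395799, lay in it. ATP2B2, a plasma membrane calcium pump, had 8 member peaks, no lost peak and 15 conserved sites. KCNN3, a calcium-activated potassium channel, had 7 and no lost peak, and CACNA1H, a T-type calcium channel, had 6 member peaks and 1 lost peak within 68.7 kb.

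Genes of cell adhesion, guidance and matrix included ROBO2, a receptor for the guidance cue Slit, with 15 member and 2 lost peaks. CDH23, a cadherin, had 9 member and 3 lost peaks, ADGRB1, an adhesion G protein-coupled receptor, 8 and 3, and HMCN2, a matrix protein gene, 7 and 2. TNS1, which links integrins to actin, had 6 member peaks and no lost peak. Regulators of small GTPases included IQSEC1, which activates ARF proteins, with 9 member peaks, 3 lost peaks and 17 conserved sites. The exchange factor genes MCF2L and KALRN had 9 and 7 member peaks and 1 lost peak each. Of the 7 at KALRN, 6 had an AP-1 string around the centre.

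Genes of signalling included ALK, a receptor tyrosine kinase gene, with 8 member peaks and 1 lost peak. LDLRAD4, which restrains TGF-β signalling, had 13 member peaks and 1 lost peak, and 7 of the 13 had an AP-1 string around the centre. PAPPA, which encodes a protease of insulin-like growth factor binding proteins, had 8 and no lost peak. TRABD2B, which encodes a membrane protease that acts on Wnt proteins, had 9 member peaks with no lost peak and no conserved site, and 1 of them was centred 415 bp from the gene start. FRMPD4 (10 member peaks), SYNDIG1 (7) and TRABD2B were the 3 among these 25 genes with neither a lost nor a conserved site. The others of the 25 were CCDC33 (8), GSE1 (7) and NCKAP5 (7).

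At promoters, 223 protein-coding genes had a member peak centred within 1 kb of an annotated TSS. At 75 of these no control peak, lost or conserved, reached within 1 kb of any TSS of the gene, while the other genes also had a site that was not gained. The member windows overlapped 3032 of 19970 protein-coding genes (15.2%), and 1237 genes (6.19%) had a member peak centred in the gene or within 10 kb. These 2 shares are the background for the gene lists below.

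All 11 metallothionein genes lay in the window chr16:56000001-57000000, which had 19 gained and 4 lost peaks. MT1E was the only one of them with a member peak in range, at chr16:56621401-56623599 and centred 2975 bp from the gene start. MT1A, MT1B and MT1F each had 1 lost peak within 10 kb, and every gene of the cluster had between 1 and 4 conserved sites in that range. Of 31 zinc and metal transporter genes, 3 overlapped a member window and none had a member peak within 10 kb, beside the background shares of 15.2% and 6.19%. Of 34 NRF2 and glutathione genes, which act in the oxidative stress response, 5 overlapped and 2 had a member peak: NQO1, a quinone reductase gene, with 1, and OSGIN1 with 2, of which at least 1 was within 1 kb of a TSS. Of 25 heat shock and chaperone genes, 3 overlapped and none had a member peak.

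Of 20 genes of AP-1 subunits, 3 overlapped a member window and only BATF2 had a member peak, at chr11:64990001-64990599 and within 1 kb of a TSS. Of 36 forkhead genes, 4 overlapped, and FOXO6 (2 peaks), FOXJ2 (2) and FOXN4 (1) had a member peak within 1 kb of a TSS. At FOXN4 no control peak, lost or conserved, lay within 1 kb of a TSS, and 1 lost peak lay within 10 kb of the gene. Of 35 MAP kinase pathway genes, 5 overlapped, with 1 member peak in ERBB2, a growth factor receptor gene, and 2 beside ARAF, a RAF kinase gene. The same 2 peaks lay within 10 kb of TIMP1, a metalloproteinase inhibitor gene, and both had an AP-1 string around the centre. Of 40 genes of matrix, adhesion and invasion, 5 overlapped and SPARC (2), ZEB1 (1), MMP2 (2) and TIMP1 (2) had member peaks. None of these 8 lists had over 10.0% of its genes with a member peak in range, against the background of 6.19%.

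Gene names that the study lists as higher or lower in expression in cadmium were placed on the same windows. These names were chosen by the study on the same cells and are not independent evidence. Of the 119 upregulated names, 84 matched a protein-coding gene, 17 of those (20.2%) overlapped a member window and 7 (8.33%) had a member peak within 10 kb. Of the 17, 5 were metallothionein genes of the chromosome 16 cluster. SERINC2 and CORO2B had 3 member peaks each, and in both cases at least 1 was within 1 kb of a TSS. ADGRG1 had 2 and MT1E had 1, none of them within 1 kb of a TSS. COL17A1, which encodes a collagen of hemidesmosomes, had 1 peak centred 320 bp from its start. APOBR had 2, the closer one centred 343 bp from its start. SPOCK1, which encodes a matrix proteoglycan, had 1, centred 619079 bp from its start, with 1 lost peak and 4 conserved sites in range. At both genes a member peak was the only peak at an annotated TSS, which at SPOCK1 was not the gene start. Of the 106 downregulated names, 102 matched, 23 (22.5%) overlapped and 12 (11.8%) had a member peak in range. CX3CL1 had 2, 1 of them centred 223 bp from its start, VSIR, an immune checkpoint gene, had 3 and LY6E had 3. VSIR lies inside CDH23, and its 3 peaks are among the 9 counted at CDH23 above. GATA2, NOTCH3 and NFATC1, which encode a transcription factor, a Notch receptor and a calcium-regulated transcription factor, had 1 each. SEMA3B, LYNX1, CORO2A, RNF208 and MSLN also had 1 each, and CHDH had 2. Over all protein-coding genes 15.2% overlapped and 6.19% had a member peak in range. Without the metallothionein genes the upregulated list had 12 of 79 genes in member windows, which is also 15.2%. No test was run on either list.

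Conserved sites also differed in length between the lists, and more of them were longer in cadmium in member windows than elsewhere. A conserved site was called longer in cadmium when the cadmium list covered more of its bases than the control list. In member windows this held for 2353 of 5820 sites, or 40.4% (95% Wilson interval 39.2 to 41.7), and 41.9% were longer in control. In all other windows 21.4% (21.0 to 21.8) were longer in cadmium and 60.2% longer in control. The summed cadmium length was 0.987 of the control length in member windows and 0.761 elsewhere. Adjoining windows lay between, at 29.0% (28.0 to 30.1), and the share fell to 17.1% (16.6 to 17.6) at 6 or more windows. That last group includes chromosomes 7 and 21, which have no member window and had shares of 13.9% and 33.3%. The 457 windows with 5 or more gained peaks that were not members were at 26.8% (26.1 to 27.5). In the member windows of chromosome 16 the share was 49.2% (46 to 52.4), and in its other windows 35.0% (31.6 to 38.6). In the stretch with the metallothionein cluster, 73 of 120 conserved sites were longer in cadmium and 29 in control, whereas in chr8:142000001-144000000 these were 38 and 49 of 92. Counted by window, sites longer in cadmium outnumbered sites longer in control in 101 of 228 member windows with at least 5 conserved sites (44.3%). Among the other windows with at least 5 conserved sites, this held for 179 of 1899 (9.43%). These lengths come from the same 2 lists as the rule and are not independent of it. Intervals here and below cover counting error only, and neighboring peaks are not independent.

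**Figure D4:**
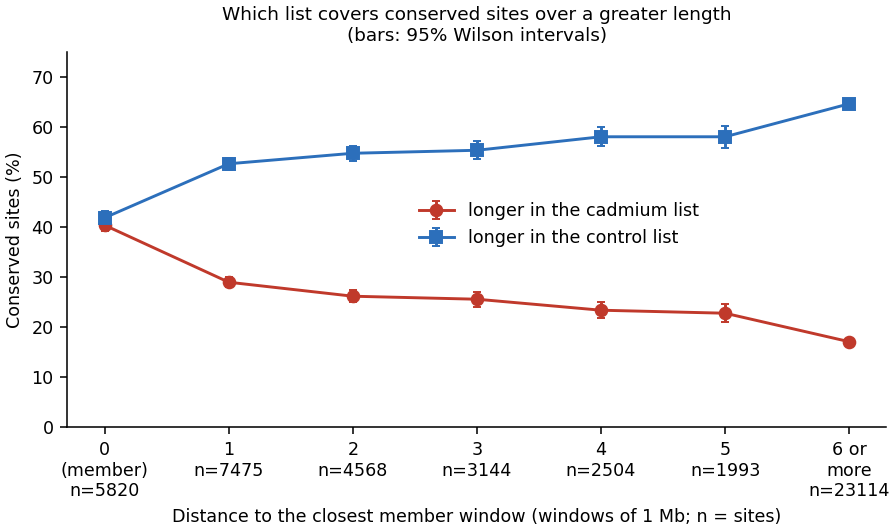
The percentage of conserved sites that were longer in the cadmium list (red circles) or in the control list (blue squares) is plotted against the distance in 1 Mb windows to the closest member window, with 95% Wilson intervals and the number of sites under each point. The shares are 40.4% and 41.9% in member windows and lie farther apart with each step, to 17.1% longer in cadmium at 6 or more windows. The last point includes chromosomes 7 and 21, which have no member window.

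Member windows also differed from the rest in base composition and genes. Their median GC content was 44.6% (quartiles 41.5 and 47.7) against 40% in the other windows, and they held a median of 9 protein-coding genes against 5 and a median of 20 conserved sites against 13. The 457 other windows with 5 or more gained peaks had a median GC content of 45.6%, 11 genes and 35 conserved sites. The member windows thus lay near those windows in GC content and well below them in conserved sites. The part of GC content and gene density in the choice of windows was not tested.

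The member peaks were set beside the other 6455 gained peaks. The median width was 599 bp in both sets. Peaks of 999 bp or more made up 37.8% of member and 28.4% of other gained peaks, and peaks of a single bin 6.11% and 8.92%. Member peaks were centred within 3 kb of a TSS in 29.2% (27.5 to 31.0) of cases and other gained peaks in 25.2% (24.2 to 26.3), and these intervals did not overlap. Of the member peaks, 38.1% were in an intron beyond that distance and 29.6% between genes. Within 1 kb of a TSS lay 14.9% (13.5 to 16.3) of member peaks, 11.4% (10.7 to 12.2) of the other gained peaks and 38.6% of conserved sites in member windows. Gained peaks of the 457 other windows with 5 or more gained peaks were closer to the members, with 36.7% at 999 bp or more. Of these peaks, 28.3% (26.9 to 29.8) were within 3 kb of a TSS and 12.5% (11.4 to 13.6) within 1 kb. Both intervals overlapped those of the member peaks.

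The AP-1 string shown in the first 3 sequences was found in the 500 bp around the centre of 807 member peaks, or 30.8% (29.1 to 32.6). Of all tiles of 500 bp of these chromosomes 7.40% held it, and of the tiles in member windows 7.78%. The share was 33.3% (32.2 to 34.5) in other gained peaks. In those of the other windows with 5 or more gained peaks it was 28.7% (27.2 to 30.2), below the members but with overlapping intervals. It was 22.7% in lost peaks of the member windows and 21.3% in their conserved sites. Those lost peaks and conserved sites were wider, with medians of 799 and 1799 bp against 599 bp in member peaks. Their shares were not compared with the members at like width. The intervals of member and other gained peaks overlapped, and the median GC content of the searched sequence was 50.6% and 47.6%. Within bands of like GC content the intervals overlapped, as at 45 to 50% GC with 37.1% (33.4 to 41.0) of member and 37.0% (34.7 to 39.3) of other gained peaks. They also overlapped within bands of width. In both sets the string was rarer in the central 500 bp of wide peaks: 12.7% of member peaks at 1199 bp or more had it there, and 45.5% at 599 bp. The outer part of wide peaks was not searched in this count. The AP-1 string was denser in the central 200 bp than in the outer 200 bp of the searched sequence, by 2.97-fold in member peaks, 3.24-fold in other gained peaks, 2.11-fold in lost peaks and 1.65-fold in conserved sites.

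**Figure D5:**
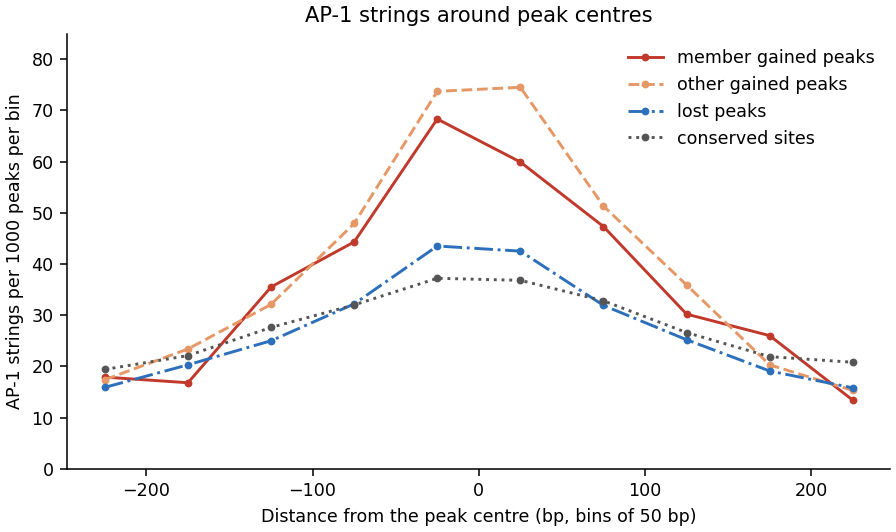
The number of AP-1 strings per 1000 peaks in each bin of 50 bp is plotted against the distance from the peak centre for member gained peaks (red), other gained peaks (orange), lost peaks (blue) and conserved sites (grey). Member and other gained peaks both have their highest values beside the centre. Their density in the central 200 bp is 2.97 and 3.24 times that in the outer 200 bp.

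The forkhead string, GTAAACA or GTAAATA or ATAAACA or ATAAATA on either strand, was found in 22.9% (21.3 to 24.6) of member peaks and 26.5% (25.5 to 27.6) of other gained peaks. In gained peaks of the other windows with 5 or more gained peaks the share was also 22.9% (21.5 to 24.3). Within bands of like GC content the intervals of member and other gained peaks overlapped. At 45 to 50% GC they were 25.4% (22.1 to 29.0) and 26.5% (24.4 to 28.6). Of the genome tiles 43.2% held it, and of those in member windows 35.3%. Among lost peaks the share was 36.1% in the member windows and 41.3% elsewhere. The MRE core was found in 821 member peaks, 31.3% (29.6 to 33.2), and in 30.3% of other gained peaks. In gained peaks of the other windows with 5 or more gained peaks its share was 33.9% (32.3 to 35.4). It was held by 28.1% of all genome tiles, 33.8% of the tiles in member windows and 40.6% of the conserved sites there. It was not denser at the centre of member peaks, with a ratio of 0.926 between the centre and the outer part, and the forkhead string had a ratio of 0.755.

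The lists give positions only. Copy number in the control and cadmium-exposed cells was not analysed here, and a change in the number of copies of a chromosome segment and a change in MTF-1 binding cannot be told apart from peak positions alone.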

How the data were processed

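MTF-1 CUT&RUN libraries of MDA-MB-231 cells were grouped by their labels into control and cadmium, with 2 libraries each. After adaptor trimming, the authors mapped the reads with Bowtie2 to hg38, merged replicates with SAMtools 1.8 and called broad peaks in bins of 200 bp with Epic2 0.0.50, listed as SICER in the submitters' processing notes. They deposited 1 list of peak positions per condition, and the values used here are the start and end of each peak in base pairs. No input library for peak calling was given in the sources used here, the depth of each library is unknown, and merging removed the spread between replicates. Signal tracks were not used here.

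Peaks were classed by at least 1 shared base and assigned to windows of 1000000 bp by their centre. Chromosome names and lengths of the lists matched the reference, apart from 1 peak per list on the mitochondrial chromosome, which was left out. Genes and TSSs came from GENCODE 44 on GRCh38. Strings were searched on both strands in 500 bp around the centre with pysam 0.24.0, and the printed sequences were read from the hg38 reference, from windows outside chromosome 8. A further sequence that met the rule is not reported here. Shares carry 95% Wilson intervals. No test was run, because each condition has 1 list and the windows were chosen from the same positions. The steps were tested on simulated data.

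The windows, gene lists and strings were chosen with earlier results of these data known. Named windows are the 10 with most gained peaks and the 10 stretches with most gained peaks, of which the text gives a selection. Named genes are the 25 protein-coding genes with most member peaks in the gene or within 3 kb, and the list genes with a member peak within 10 kb. Other genes named beside a window were chosen after their values were seen. Expression lists hold gene names only. Alternatives changed the window offset, the rule, the peak classes, the width limit, the searched sequence, the TSS set and the chromosomes. The settings without chromosome 16 and without windows within 5 Mb of a chromosome end were added after seeing the data.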

Additional observations from a re-analysis of the deposited data

How the results depend on the processing

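Over 87 combinations of a result and an alternative, 62 stayed within 1.5 times the main count or within the 95% interval of the main share. The other 25 moved. With gained and lost peaks limited to 5 or more bins (999 bp or wider), 76 windows met the rule, of which 65 were among the 248, with 629 gained peaks of a median width of 1599 bp and 31 adjoining windows. The shares were then 14.6% for AP-1, 17.8% for forkhead, 37.7% for the MRE core, 32.4% within 3 kb of a TSS and 44.6% of conserved sites longer in cadmium. With at least 3 times as many gained as lost peaks, 166 windows were left, 58 of them adjoining another, and the MRE core, TSS and conserved shares were 29.5%, 27.5% and 41.9%. With peaks counted as unique when under 50% of their bases were covered, 168 windows met the rule, 148 of them among the 248, 74 adjoined another, and 47.7% of conserved sites were longer in cadmium. Searching whole peaks gave 44.5% for AP-1, 31.2% for forkhead and 43.5% for the MRE core. TSSs of protein-coding genes alone gave 18.8% within 3 kb, and a limit of 10 kb gave 58.9%. A difference of at least 400 bp left 28.3% of conserved sites longer in cadmium. Without chromosome 16, the TSS and conserved shares were 27.0% and 38.7%. Without windows within 5 Mb of a chromosome end, the AP-1 and forkhead shares were 33.0% and 25.2%. Apart from what each alternative's own construction shows, such as fewer peaks or a longer search, the cause was not tested. No paired analysis was possible because the replicates were merged before peak calling, and for the same reason no replicate could be left out. Depth per library is unknown, so peaks with few and many reads weigh the same.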

Other observations

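Some member windows held long successions of gained peaks with no lost or conserved site between them. These were chosen after their values were seen and carry no test. There were 64 successions of 5 or more gained peaks with all peaks in member windows, of 110 over all windows, and 12 of 8 or more, of 23. The longest had 21 peaks over 385 kb at chr9:135014401-135399199, where OLFM1, the gene of a secreted glycoprotein of neurons, is the protein-coding gene. OLFM1 had 1 member peak in the gene or within 3 kb and its TSSs were the closest to 7.

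A succession of 13 peaks at chr20:24018801-24660399 ran over 642 kb to SYNDIG1, and another of 13 at chrX:11770201-12779799 covered MSL3 and FRMPD4, a postsynaptic scaffold gene. On chromosome 6, 12 peaks lay at chr6:168155001-168796199 with DACT2, which encodes an inhibitor of Wnt and TGF-β signalling, and SMOC2, which encodes a matrix protein. On chromosome 10, 11 peaks lay over 1025 kb at chr10:130718801-131743599 with TCERG1L. The one with 8 peaks in LDLRAD4 was compact, at 112 kb.

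After the widest member peak in CACNA2D2, the next were 6599 bp at chr9:136594601-136601199, 6399 bp at chr9:135276001-135282399, which is inside the succession near OLFM1, and 5999 bp at chr9:136823001-136828999, centred 598 bp from a TSS of RABL6. The fifth was 5799 bp at chr16:89007801-89013599. All 5 lay in windows among the first 20 by gained peaks.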
